A study of Mus musculus with 6 samples.

Results

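The axon guidance ligands and receptors are the semaphorins (Sema3 to Sema7), plexins, neuropilins, Eph receptors, ephrins, Slits, Robos, netrins, Unc5 receptors and Dcc. They were taken by gene symbol from an expression table of mouse tooth tissue, and 69 of its 25899 gene rows matched. The tissue was the apical dental mesenchyme of first mandibular molars, cut away at postnatal day 7.5, and its RNA was sequenced after poly(A) selection. The 3 mutant libraries came from mice of genotype Gli1-CreER;Bmpr1a fl/fl and the 3 control libraries from littermates of genotype Bmpr1a fl/fl without the driver. All carried the loxP-flanked (floxed) Bmpr1a alleles and a mixed background (C57Bl6/129S6/SvEvTac). By the labels, controls 1 and 2 were littermates of mutants 1 and 2 (litter 1), and control 3 was a littermate of mutant 3 (litter 2). CreER is a recombinase that acts only in the presence of tamoxifen and was made here in Gli1-expressing cells. Cells of the tissue outside this population and its descendants keep the receptor. The tamoxifen schedule, and whether controls received the drug, are not given in the sources used here. The labels do not say that each library is a separate animal, so p-values measure only the spread between these libraries, which may be partly technical.

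Guidance molecules steer growing axons by attraction or repulsion, and the same molecules set cell boundaries, vessel growth and cell migration outside the nervous system. Class 3 semaphorins are secreted and act through neuropilin and plexin complexes, while most other semaphorins are membrane-bound and bind plexins directly. Ephrins are anchored in the membrane and signal through Eph receptor tyrosine kinases on touching cells; Slits act through Robo receptors, and netrins through Dcc and Unc5 receptors. In the developing tooth, Sema3a from the mesenchyme is known as a repellent that controls when and where sensory axons enter the dental pulp.

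Levels are given in reads per 1000000 reads of a library (RPM), and the 6 libraries held between 15916045 and 20609420 reads on genes. At that depth 3 reads, the smallest number treated as detected, correspond to between 0.0987 and 0.126 RPM, for counting error only. Bmpr1a, the floxed gene and a receptor for bone morphogenetic proteins (BMPs), was at 121, 139 and 149.5 RPM in controls 1 to 3 and at 108, 120.2 and 111 RPM in mutants 1 to 3. The groups did not overlap, but the log2 change of -0.27 (SE 0.14) had an unadjusted p of 0.091 by limma. Gli1 was between 30.4 and 63.7 RPM in controls and between 19.8 and 28.7 RPM in mutants. Its groups did not overlap either, and the log2 change was -0.70 (SE 0.29). The unadjusted p for Gli1 was 0.046 by limma and did not pass adjustment. All 6 listed dental mesenchyme markers had at least 3 reads in each library, and their summed level was between 552 and 882 RPM. All 11 enamel epithelium markers were also detected in every library. Their sum was between 2339 and 39321 RPM in controls and between 5362 and 49721 RPM in mutants, a 21.3-fold range, although the labels name mesenchyme only. The sum over 6 odontoblast markers was between 20580 and 37134 RPM in litter 1 and between 5349 and 16167 RPM in litter 2. No marker of any list was at 0 in all 6 libraries. In such bulk samples, fewer cells of a type and less RNA per cell cannot be told apart.

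Sequences just before the start of transcription are shown for 3 members on which the comparisons below turn: Epha3 and Sema3a, with levels on the lower side in mutants, and Sema7a, which differed between litters. They are the 250 bases upstream of the start in RefSeq (build GRCm38.p6), 5′ to 3′ on the gene's strand. Capitals mark CAGAC or its reverse complement GTCTG, the short motif bound by Smad proteins, which carry the signal of BMP receptors.
Epha3 (chr16:63864176-63864425, minus strand): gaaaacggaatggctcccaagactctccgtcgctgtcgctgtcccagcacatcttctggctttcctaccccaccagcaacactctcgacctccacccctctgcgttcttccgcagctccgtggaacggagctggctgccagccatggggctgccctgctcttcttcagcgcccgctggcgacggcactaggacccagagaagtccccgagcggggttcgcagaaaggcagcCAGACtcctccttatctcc
Sema3a (chr5:13396534-13396783, plus strand): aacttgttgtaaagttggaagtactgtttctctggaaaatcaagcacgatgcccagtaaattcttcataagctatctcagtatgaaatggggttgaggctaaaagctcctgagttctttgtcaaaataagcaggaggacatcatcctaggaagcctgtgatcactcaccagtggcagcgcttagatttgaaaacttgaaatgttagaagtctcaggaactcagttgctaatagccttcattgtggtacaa
Sema7a (chr9:57939862-57940111, plus strand): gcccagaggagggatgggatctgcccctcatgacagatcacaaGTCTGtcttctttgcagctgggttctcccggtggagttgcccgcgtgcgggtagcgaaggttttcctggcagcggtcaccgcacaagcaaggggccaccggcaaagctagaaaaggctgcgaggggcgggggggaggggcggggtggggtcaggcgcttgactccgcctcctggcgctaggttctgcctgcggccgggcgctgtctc
The Epha3 window held 1 match and the Sema7a window 1, on the other strand, and the Sema3a window 0. The motif is short and common: 28 of the 59 member windows found in the table (47.5%) held it, against 42.1% of all 27025 windows of that length. The longer motif GGCGCC, also bound by Smad1 and Smad5 and its own reverse complement, was in 13 of 59 member windows (22.0%) and in 9.54% of all windows. Member windows had a median GC content of 64.8%, against 52.0% for all, and a median of 16 CpG dinucleotides against 6. The Epha3 and Sema7a windows were similar to the other members at 62.8% and 66.4% GC, while the Sema3a window was at 40.8%. The RefSeq start used for Sema3a lies inside the span that GENCODE gives for the gene, so its window is not the sequence before the 5′ end of that span, and its GC content and motif count are not comparable with those of the other 2. A match is a description of letters, not of binding, and the motif counts were not adjusted for the difference in GC content.

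Most of these genes were detected in the dissected apical tissue, which also held RNA of cell types other than mesenchyme. A mean of at least 1 RPM, the level needed to enter a test, was reached by 61 of the 69 members; 53 had a mean of at least 10 RPM and 8 a mean of at least 100 RPM. Dividing by the length of merged exons (GENCODE M21) allows levels to be compared between genes, as RPM per kb. On this scale the highest mean was that of Plxnd1, a plexin known from endothelium and the receptor of Sema3e, at 82.6 RPM per kb with library values from 37.7 to 130. Unc5b, a netrin receptor also known from vessels, followed at 71.9 RPM per kb with library values from 53.0 to 78.0, so that the ranges of the first and second gene overlapped. A group of close levels came next, in RPM per kb: Efnb1 at 39.9, Sema5a at 39.2, Efna1 at 36.1, Ephb4 at 35.0 and Plxnb2 at 34.4. The library ranges of these 5 overlapped one another, for example 32.4 to 47.9 for Efnb1 and 32.1 to 37.8 for Plxnb2, so their order is not resolved.

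The other families were led by lower levels per length. Among Eph receptors of the A class, Epha2 had the highest mean level per length at 9.58 RPM per kb, and Epha4, the class leader in RPM, was at 8.03 RPM per kb. The most abundant neuropilin per length was Nrp1 at 15.4 RPM per kb, against 6.40 RPM per kb for Nrp2. Robo1 and its ligand gene Slit3 were at 16.0 and 15.5 RPM per kb, with overlapping library ranges. Among secreted semaphorins, Sema3b was at 11.5 RPM per kb and Sema3f at 9.88 RPM per kb, and Sema3a was at 2.09 RPM per kb with library values from 1.15 to 3.15. Ntn1, the founding netrin, was at 2.10 RPM per kb, below Ntn3 at 9.58 and Ntn4 at 6.97 RPM per kb.

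**Figure D1:**
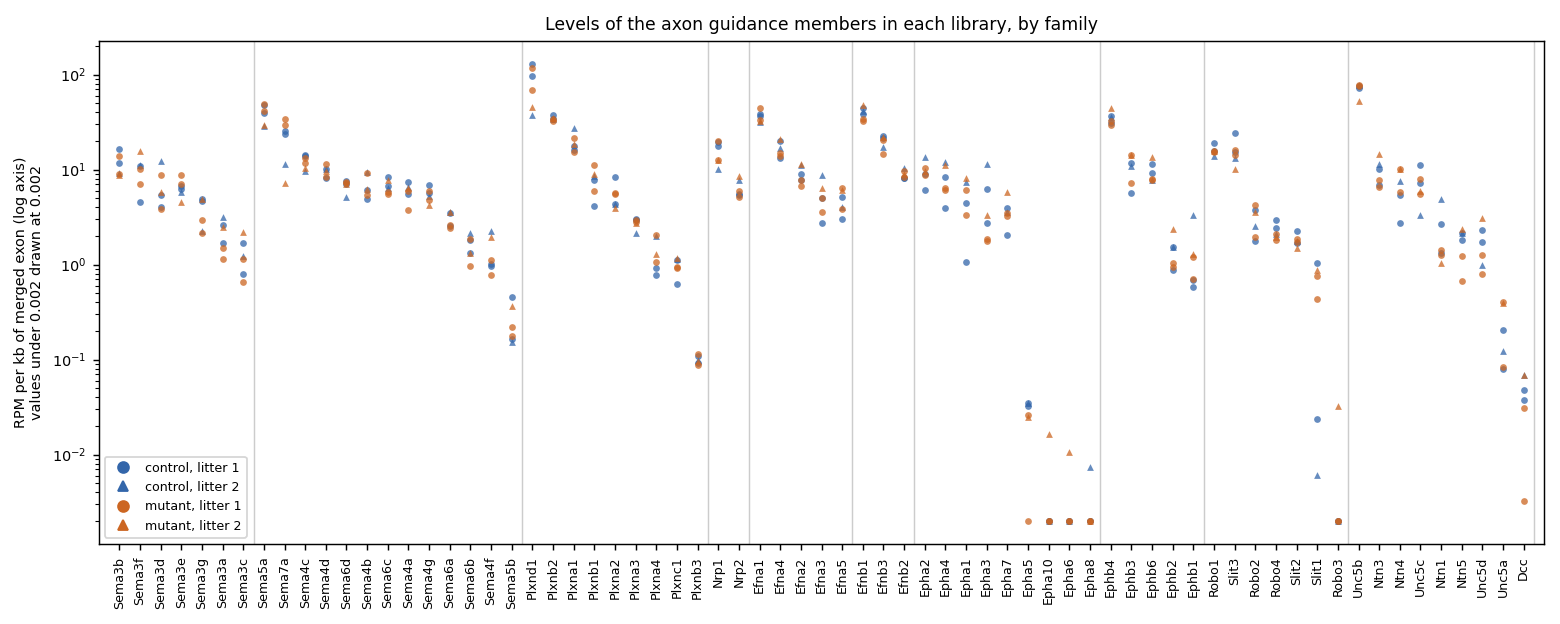
Level of each of the 69 members in each library, in RPM per kb of merged exon on a log axis, by family; each point is 1 library, coloured by genotype, and values under 0.002 are drawn at 0.002. Plxnd1 and Unc5b sit highest, and Epha6, Epha8, Epha10 and Robo3 lie at or near the floor.

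The 8 members that did not enter a test were Dcc, Epha5, Epha6, Epha8, Epha10, Plxnb3, Robo3 and Unc5a. Epha6 and Epha10 each had a single read, in mutant 3, Epha8 a single read, in control 3, and Robo3 had 4 reads, all in mutant 3. Dcc, the netrin receptor that mediates attraction, had between 1 and 20 reads per library. Plxnb3 had between 14 and 21 reads, Epha5 between 0 and 10, and Unc5a between 9 and 45. The Epha5 groups did not overlap, with 10 reads in each control and 0, 8 and 6 reads in mutants 1 to 3; this difference was not tested in the reported fit. When all 69 members were entered, with no filter on level, no member had an adjusted genotype p under 0.05 by limma, and 1 had an unadjusted one.

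Genotype was compared over all 14444 genes that reached a mean of 1 RPM, with limma on log2(RPM + 1) and Benjamini-Hochberg adjustment. No gene passed an adjusted p of 0.05, the smallest being 1.00, and limma voom on recovered reads also called 0. Unadjusted p-values were under 0.05 for 152 genes, 1.05% of those tested (148 genes by limma voom), and for 2 of the 61 tested members (3.28%). These 2 were Epha3 and Ntn1, both at lower levels in mutants, a direction in which 0.692% of all genes passed. This fit had no litter term, although each litter held both genotypes. With litter as a block, 4 of the 61 members and 292 of all 14444 genes had an unadjusted p under 0.05 by limma. The median log2 change over members was -0.02, against -0.01 over all genes, with 28 members on the higher side and 33 on the lower side. The 35 ligands had a median log2 change of -0.08 and the 26 tested receptors one of 0.02. For 39 of the 61 members the 95% interval of the change lay within a 2-fold change in either direction, and with litter as a block this held for 44. For members outside these counts, the interval of the respective fit reached past that size. The estimate was larger than 1.5-fold in either direction for 5 members, Epha1, Epha3, Ntn1, Ntn4 and Slit1.

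**Figure D2:**
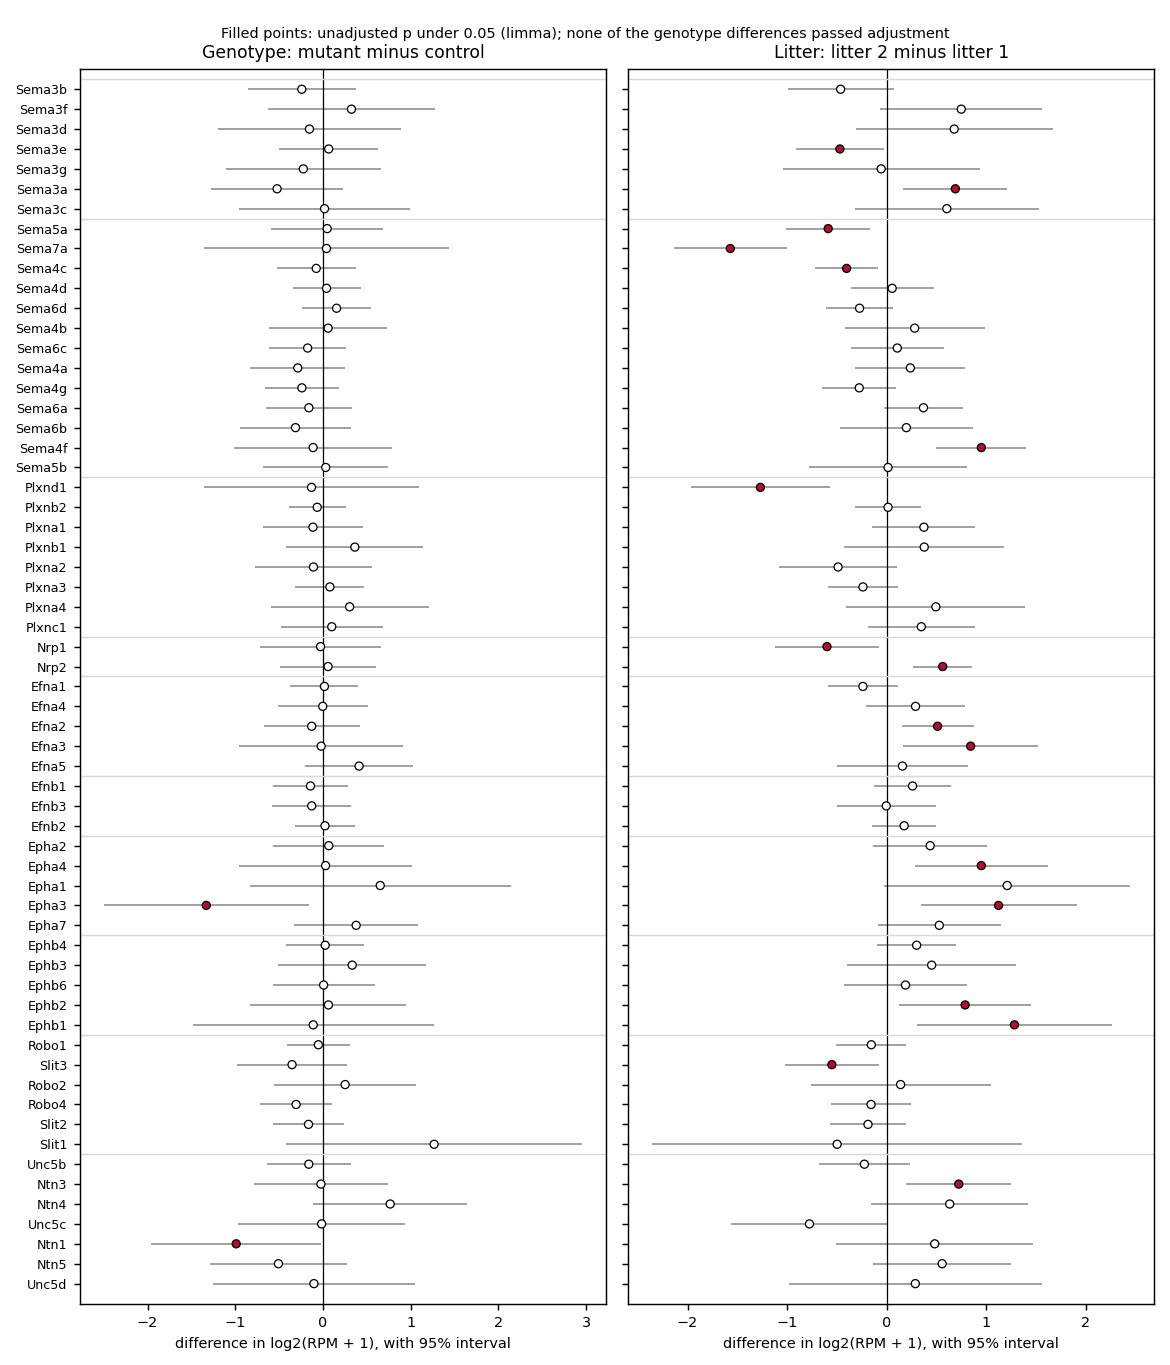
Genotype difference (mutant minus control) and litter difference (litter 2 minus litter 1) of the 61 tested members on the log2(RPM + 1) scale, by family; points are estimates by limma, lines are 95% intervals, and filled points have an unadjusted p under 0.05. Filled points are Epha3 and Ntn1 for genotype and 17 members for litter.

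Among Eph receptors, Epha3 had the largest genotype difference and was on the lower side in mutants. Epha3 encodes a receptor for A-class ephrins with roles in mesenchymal and neural cells, and its gene lies at chr16:63543534-63864175 (mm10, minus strand). It was at 17.1, 39.7 and 71.4 RPM in controls 1 to 3 and at 11.7, 11.0 and 21.04 RPM in mutants 1 to 3. Control 3 was the highest library, and mutant 3 lay above control 1, so the groups overlapped. Means were 42.7 ± 27.3 RPM in controls and 14.6 ± 5.60 RPM in mutants (SD, n = 3 each). The log2 change was -1.33 (SE 0.50, 95% interval -2.50 to -0.16) and the unadjusted p 0.0306, which did not pass adjustment (adjusted p 1.00 by limma). Both litters showed the same side, with a change of -1.14 in litter 1 and -1.72 in litter 2, where each genotype had 1 library. The unadjusted p was under 0.05 in 14 of 18 alternatives, among them 0.00415 with litter as a block and 0.00188 without control 1, where the change was -1.86. It was 0.0788 without control 3, where the change was -0.86, and 0.0556, 0.104 and 0.0823 without control 2, mutant 1 or mutant 2.

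The other tested Eph receptors had overlapping genotype groups. Epha1, known from epithelia, had a mean of 14.6 ± 10.8 RPM in controls and 19.7 ± 8.13 RPM in mutants (SD, n = 3 each). Its change of 0.65 (SE 0.63) had a 95% interval from -0.83 to 2.14. Ephb4, a receptor known from veins, was at 160.4, 137 and 155 RPM in controls 1 to 3 and at 127, 143 and 196 RPM in mutants 1 to 3. Mutant 1 was the lowest and mutant 3 the highest library, on both sides of the controls, and the Ephb4 change was 0.03 (SE 0.19). Epha4 changed by 0.03 (SE 0.42) and Ephb1 by -0.11 (SE 0.58).

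All 8 ephrins were tested, and their changes lay between -0.14 and 0.41. Efnb1, whose level per length overlapped that of Efna1 at the top of the ephrins, was at 145, 126 and 135 RPM in controls 1 to 3 and at 106, 111 and 156 RPM in mutants 1 to 3. Mutants lay both below and above the controls, and the Efnb1 change was -0.14 (SE 0.18, 95% interval -0.57 to 0.28). Efnb2, the ligand of Ephb4 and a mark of arteries, had a mean of 42.5 ± 5.91 RPM in controls and 43.0 ± 3.21 RPM in mutants (SD, n = 3 each). The largest ephrin estimate was that of Efna5, a repellent ligand of A-class Eph receptors, at 0.41 (SE 0.26, unadjusted p 0.156 by limma). Efna5 was at 20.5, 12.1 and 16.1 RPM in controls 1 to 3 and at 25.7, 15.6 and 24.7 RPM in mutants 1 to 3. The difference of Efna5 had 1 sign in both litters, at 0.33 in litter 1 and 0.58 in litter 2, but mutant 2 lay among the controls.

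Among the netrins, Ntn1 had the largest genotype estimate in size, on the lower side in mutants. Ntn1 encodes netrin-1, a secreted cue that attracts axons through Dcc and repels them through Unc5 receptors (chr11:68209364-68400823, mm10, minus strand). It was at 8.10, 16.4 and 29.6 RPM in controls 1 to 3 and at 8.67, 7.69 and 6.37 RPM in mutants 1 to 3. Controls 2 and 3 stood above every mutant, while control 1 lay within the range of the mutants, whose levels were close together. Means were 18.03 ± 10.8 RPM in controls and 7.57 ± 1.15 RPM in mutants (SD, n = 3 each). The log2 change was -0.99 (SE 0.41, 95% interval -1.96 to -0.02) and the unadjusted p 0.0465 (adjusted p 1.00 by limma). It was -0.46 within litter 1 and -2.05 within litter 2. The unadjusted p was 0.0747 with limma voom on recovered reads and 0.114 without control 3, where the change was -0.56, and it stayed under 0.05 in 8 of 18 alternatives.

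The order of the 3 controls in Epha3 and Ntn1 was looked for in the marker lists after values were seen. A ranking with control 1 below control 2, control 2 below control 3, and control 3 the highest of the 6 libraries was found for 6 of 61 members, Epha3 and Ntn1, which prompted the search, among them, for 5.15% of all genes tested, and for 11 of 67 tested markers. These 11 were 4 of 6 osteoblast markers (Ibsp, Spp1, Runx2 and Alpl), Acp5 of osteoclasts, Dmp1 of odontoblasts, Stmn2 of neurons, Klk4 of enamel epithelium, Hba-a1 and Hbb-b1 of red cells, and Lhx8 of dental mesenchyme, whose list also holds Runx2. Ibsp, an osteoblast matrix gene, was at 35.5, 65.9 and 154 RPM in controls 1 to 3 and between 23.6 and 29.9 RPM in mutants. Spp1, another bone matrix gene, was at 4.54, 96.1 and 159 RPM in controls 1 to 3 and between 3.36 and 5.20 RPM in mutants. Acp5, an osteoclast enzyme, was at 13.3, 28.2 and 44.4 RPM in controls 1 to 3 and between 10.6 and 17.7 RPM in mutants. The whole list of 8 macrophage and osteoclast markers did not share this order, with sums of 511, 631 and 327 RPM in controls 1 to 3 and between 358 and 710 RPM in mutants. Ibsp, Spp1 and Acp5 were found by this order, so control 3 as their highest library was set by the search. Control 1 lay near the mutants for these markers, as for Epha3 and Ntn1. The sum over the whole list of 6 osteoblast markers, all detected in each library, did not share this order either. It was 923, 1659 and 1532 RPM in controls 1 to 3 and between 501 and 1521 RPM in mutants. Dmp1 was at 5.33, 18.9 and 88.7 RPM in controls 1 to 3 and between 5.36 and 16.9 RPM in mutants, and Stmn2 at 2.90, 3.08 and 5.83 RPM in controls 1 to 3 and between 1.86 and 2.72 RPM in mutants. The part of these cell types in the Epha3 and Ntn1 differences was not tested.

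Of the other netrins, Ntn5 was at 3.98, 4.79 and 4.73 RPM in controls 1 to 3 and at 1.49, 2.73 and 5.20 RPM in mutants 1 to 3. Mutant 3 was the highest of the 6 Ntn5 libraries, and the change was -0.51 (SE 0.33, unadjusted p 0.169 by limma). Ntn4, a laminin-like netrin of basement membranes, was on the higher side in mutants. Ntn4 was at 19.9, 10.04 and 27.4 RPM in controls 1 to 3 and at 37.1, 21.4 and 36.7 RPM in mutants 1 to 3. Mutant 2 lay between controls 1 and 3, so the groups overlapped, although within each litter the mutants were above the controls. The Ntn4 change was 0.77 (SE 0.37, unadjusted p 0.0787 by limma), and with litter as a block the unadjusted p was 0.0455. Unc5b was between 426 and 458 RPM in the 3 controls and at 453, 439 and 311 RPM in mutants 1 to 3. Only mutant 3 stood apart, below the other 5 libraries, and the Unc5b change was -0.16 (SE 0.20).

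Sema3a, the pulp axon repellent, lies at chr5:13125414-13602565 (mm10, plus strand). It was at 16.2, 10.6 and 19.6 RPM in controls 1 to 3 and at 7.14, 9.35 and 15.4 RPM in mutants 1 to 3. Mutant 3 was above control 2, so the groups overlapped, but in each litter every mutant was below every control. Means were 15.5 ± 4.56 RPM in controls and 10.6 ± 4.26 RPM in mutants (SD, n = 3 each). The log2 change was -0.52 (SE 0.32, 95% interval -1.27 to 0.23) and the unadjusted p 0.144 (adjusted p 1.00 by limma). With litter as a block the unadjusted p was 0.0410, and it was 0.0482 without control 2 and 0.0316 without mutant 3. These were the 3 of 18 alternatives with a p under 0.05; over all 18 the change ranged from -0.80 without mutant 3 to -0.30 without mutant 1, and the unadjusted p from 0.0316 to 0.407. In all, 4 of 61 members had each litter's mutants on the same side of its controls, Epha3, Robo4 and Sema3a lower and Ntn4 higher. This share of members, 6.56%, stood beside 8.27% of all genes tested (5.35% lower and 2.92% higher).

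None of the other semaphorins, plexins or neuropilins had an unadjusted p under 0.05 for genotype. Sema3d, a secreted semaphorin known from vessel patterning, was at 30.1, 40.4 and 90.9 RPM in controls 1 to 3 and at 64.8, 28.5 and 43.2 RPM in mutants 1 to 3. Control 3 was the highest library and mutant 2 the lowest, and the change of -0.15 (SE 0.44) was small against that spread. Sema5a, the most abundant semaphorin, had a mean of 417 ± 101 RPM in controls and 431 ± 103 RPM in mutants (SD, n = 3 each). Plxnb2, a receptor of class 4 semaphorins, was the most even plexin, between 221 and 248 RPM in controls and between 211 and 231 RPM in mutants. Its change was -0.07 (SE 0.14, 95% interval -0.39 to 0.26). Nrp1 changed by -0.03 (SE 0.29) and Nrp2 by 0.06 (SE 0.23).

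Robo4, the endothelial Robo receptor (chr9:37401897-37415115, mm10, plus strand), was the 1 of the 61 tested members whose genotype groups did not overlap. Over all genes the groups did not overlap for 2.64%, and for 1.67% with mutants lower. Robo4 was at 14.9, 12.5 and 10.8 RPM in controls 1 to 3 and at 9.34, 10.7 and 10.02 RPM in mutants 1 to 3. The gap was narrow, since control 3 and mutant 2 were almost level. The Robo4 change was -0.31 (SE 0.17, unadjusted p 0.121 by limma), with -0.41 in litter 1 and -0.10 in litter 2. The summed level of 8 endothelial markers, all detected in each library, was between 351 and 454 RPM in controls and between 290 and 423 RPM in mutants. The part of endothelial RNA in the Robo4 difference was not tested.

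Slit1, a ligand of Robo receptors, varied more than any other tested member in relative terms. It was at 6.12, 0.140 and 0.0353 RPM in controls 1 to 3, the last being a single read, and at 2.56, 4.42 and 5.07 RPM in mutants 1 to 3. Control 1 was the highest of the 6 libraries, and the other controls were near the limit of detection. The Slit1 estimate on the log2(RPM + 1) scale was 1.27 (SE 0.72, unadjusted p 0.12 by limma). Over the alternatives it ranged from 0.62 in litter 1 alone to 3.63 with no pseudocount (unadjusted p 0.0722). The unadjusted p was 0.0404 with limma voom on recovered reads, and 0.000308 without control 1, where the estimate was 2.17 and the adjusted p 0.64. Robo1, the most abundant Robo, was between 106 and 146 RPM in controls and between 117 and 119 RPM in mutants, a change of -0.05 (SE 0.15). Slit2 and Slit3, the ligands with steadier levels, had changes of -0.16 (SE 0.17) and -0.35 (SE 0.27).

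**Figure D3:**
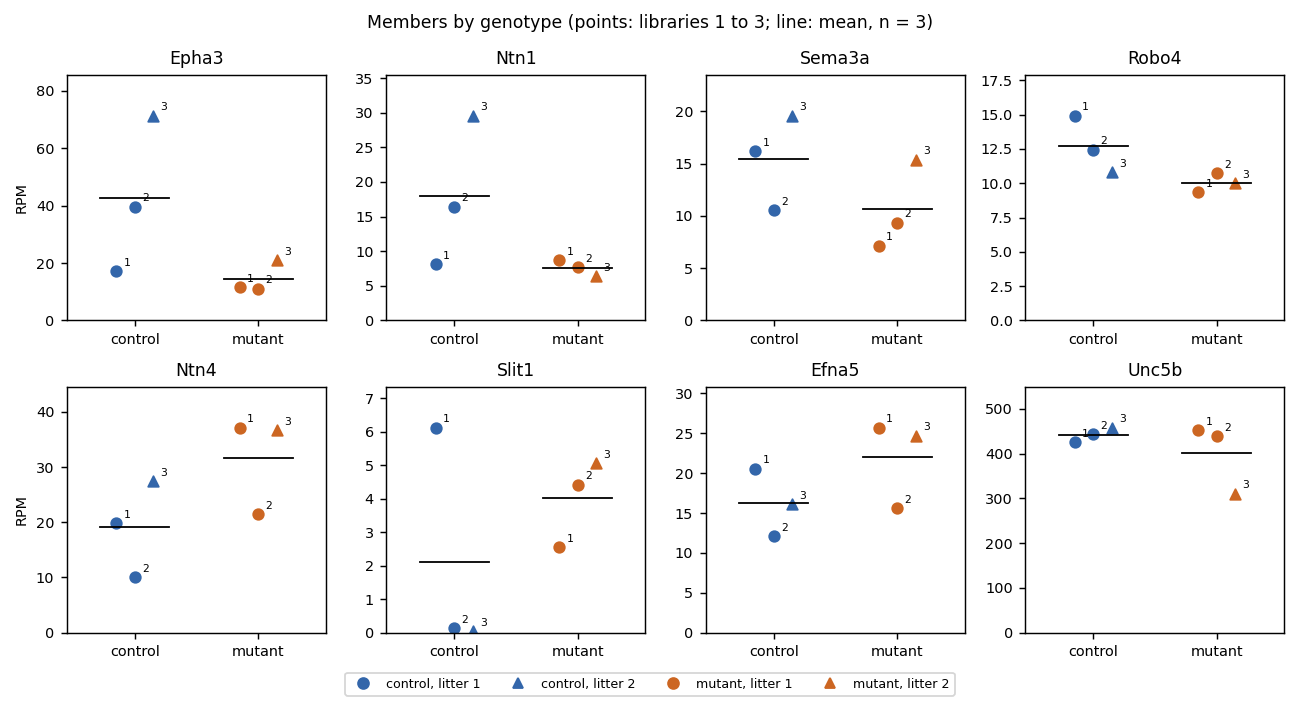
RPM of 8 members in each library, by genotype; each point is 1 library with its number, the line is the mean of the 3 libraries of a group, and circles and triangles are litters 1 and 2. Epha3, Ntn1, Sema3a, Robo4 and Unc5b have lower means in mutants and Ntn4, Slit1 and Efna5 higher means, and only the Robo4 groups do not overlap.

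Co-receptors, signal transducers and other guidance cues outside the families were read from a list of 84 genes, of which 83 were in the table and 80 were tested. None of the 80 had an unadjusted p under 0.05 for genotype by limma or limma voom, 1 had with litter as a block (Flrt2, p 0.0237), and their median log2 change was -0.01. The groups did not overlap for 3 of the 80, beside 2.64% of all genes: Flrt2 on the higher side, and Dpysl3 and Dock1 on the lower, beside 1.67%. Flrt2, a membrane ligand of Unc5 receptors, was between 40.3 and 81.7 RPM in controls and between 86.2 and 95.9 RPM in mutants (change 0.54, SE 0.26). Dpysl3, a collapsin response mediator of semaphorin signals, was between 174 and 201 RPM in controls and between 92.9 and 165 RPM in mutants (change -0.45, SE 0.24). Dock1, a Rac activator downstream of netrin receptors, was between 67.0 and 79.0 RPM in controls and between 61.1 and 66.4 RPM in mutants (change -0.18, SE 0.12).

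Litter was fitted with genotype as a covariate, as litter 2 minus litter 1. Over all genes 126 had an adjusted p under 0.05 (0.872%), and 3026 an unadjusted p under 0.05 (20.9%). Among members, 1 of 61 had an adjusted p under 0.05, Sema7a, and 17 of 61 an unadjusted p under 0.05 (27.9%). Of these 17, 10 were higher in litter 2, against 7.21% of all genes, and 7 were lower, against 13.7%. These counts depended on single libraries: the higher count was 17 without control 1, and the lower count was 2 without control 2 or control 3 and 3 without mutant 2, while the total ran from 11 to 23 when each library was left out. Over all genes the total ran from 1396 to 4245 in the same fits. The higher count over all genes was 1244 without control 1, against 1041 in the reported fit. The lower count was 1253, 889 and 1267 without control 2, control 3 and mutant 2, against 1985. The median litter difference was 0.24 over members and -0.03 over all genes, and without mutant 3 it was 0.049 over members and -0.14 over all genes. Without any other single library it was between 0.18 and 0.34 over members. Litter 2 holds 1 library of each genotype, and litter cannot be told apart from the dissection and handling of those libraries.

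Sema7a, a membrane-anchored semaphorin that acts on integrins and plexin C1 (chr9:57940112-57962865, mm10, plus strand), was lower in litter 2. Its level was 83.5 and 77.2 RPM in controls 1 and 2 and at 113 and 97.3 RPM in mutants 1 and 2, all of litter 1. In litter 2 it was at 38.1 RPM in control 3 and at 24.0 RPM in mutant 3, both below every library of litter 1. The litter difference was -1.57 on the log2(RPM + 1) scale (SE 0.24), with an adjusted p of 0.0487 by limma. The direction was the same in all 15 alternatives, and the adjusted p ranged from 0.0314 to 0.198, under 0.05 in 4 of them. It was lost when any library other than control 3 was left out, the highest value being 0.198 without mutant 2. Dspp, the matrix gene that defines odontoblasts, followed the same order of litters. Dspp was at 4032, 4844, 6872 and 4642 RPM across litter 1 (controls 1 and 2, then mutants 1 and 2), and at 817 and 113 RPM in control 3 and mutant 3. Phex, another odontoblast marker, was between 387 and 725 RPM in litter 1 and at 113 and 18.2 RPM in litter 2. Dspp and Phex were singled out after their values were seen, and 2 of the other odontoblast markers were on the higher side in litter 2. Dmp1 was at 88.7 RPM in control 3 and 15.2 RPM in mutant 3, against 5.33 to 18.9 RPM in litter 1 (difference 1.80, unadjusted p 0.0447 by limma). Smpd3 was at 458 RPM in control 3 and 168 RPM in mutant 3, against 64.7 to 184 RPM in litter 1 (difference 1.15, unadjusted p 0.00663 by limma). The part of odontoblast RNA in the Sema7a difference was not tested.

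Plxnd1 (chr6:115954811-115995005, mm10, minus strand), the plexin with the highest mean level per length, was also lower in litter 2 without passing the threshold. It was at 671, 900.4, 475 and 800.2 RPM across litter 1 (controls 1 and 2, then mutants 1 and 2), and at 261 and 315 RPM in control 3 and mutant 3. The litters did not overlap, and the difference was -1.27 (SE 0.29, adjusted p 0.0992 by limma). When each library was left out, the adjusted p ranged from 0.0484 without mutant 1 to 0.529 without control 3, where the difference was -0.96; it was 0.213 without control 2 and 0.280 without mutant 2. Notch3, a perivascular marker, was at 161, 174, 115 and 167 RPM across litter 1 (controls 1 and 2, then mutants 1 and 2), and at 33.2 and 55.6 RPM in litter 2. All 7 perivascular markers were detected, with a sum between 573 and 954 RPM in litter 1 and between 372 and 615 RPM in litter 2. Pecam1, an endothelial marker, was instead between 49.9 and 75.1 RPM in litter 1 and at 64.5 and 67.1 RPM in litter 2. Kdr, another endothelial marker, was between 48.1 and 68.7 RPM in litter 1 and at 43.2 and 41.4 RPM in litter 2 (difference -0.52, unadjusted p 0.0178 by limma). The 8 endothelial markers summed to between 290 and 454 RPM in litter 1 and to between 351 and 397 RPM in litter 2. The part of perivascular and endothelial RNA in the Plxnd1 difference was not tested.

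Sema4f and Nrp2 also had an adjusted litter p under 0.1, as had 4 of 61 members in all (6.56%, against 3.99% of all genes). The count of members was 0 without mutant 2 or mutant 3, 1 without control 2 or control 3, 7 without control 1 and 9 without mutant 1. Over all genes the same fits, in that order, gave 9, 67, 143, 62, 577 and 2096, the last of 14456 genes. Sema4f, a class 4 semaphorin, was between 3.16 and 4.52 RPM in litter 1 and at 9.18 and 7.88 RPM in litter 2 (difference 0.95, SE 0.19, adjusted p 0.0748 by limma). Nrp2, the neuropilin that prefers Sema3f, was between 53.4 and 61.8 RPM in litter 1 and at 80.8 and 89.1 RPM in litter 2 (difference 0.56, SE 0.12, adjusted p 0.0903 by limma). The Nrp2 difference kept its direction in all 15 alternatives, with an adjusted p from 0.0579 without mutant 1 to 0.391 without control 3. Sema3a too was on the higher side in litter 2, by 0.69 (SE 0.22, adjusted p 0.165 by limma). The litters did not overlap for 22 of 61 members, which is 36.1% beside 35.5% of all genes.

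The 10 tested Eph receptors all had litter estimates on the higher side in litter 2, as had 6710 of all 14444 genes, with medians of 0.95 for the A class and 0.45 for the B class. The directions held under each scaling tried, and 1 B-class receptor changed side when mutant 3 was left out. With each library left out, the medians ranged from 0.71 to 1.05 for the A class and from 0.29, without control 2, to 0.68, without control 1, for the B class. Unadjusted p-values were under 0.05 for Epha3, Epha4, Ephb1 and Ephb2, 4 of the 10, beside 7.21% of all genes called on the higher side, and no adjusted p was under 0.1. Epha4, a receptor for both ephrin classes, was at 53.1, 25.1, 40.0 and 38.4 RPM across litter 1 (controls 1 and 2, then mutants 1 and 2), and at 76.9 and 71.5 RPM in control 3 and mutant 3. Both libraries of litter 2 were above all of litter 1, and the Epha4 difference was 0.95 (SE 0.28, adjusted p 0.151 by limma). The summed level of 7 neuron markers was also on the higher side in litter 2, between 46.9 and 75.7 RPM in litter 1 and at 199 and 128 RPM in control 3 and mutant 3. Most of that difference was in Tubb3, a neuronal tubulin, which was between 21.2 and 41.7 RPM in litter 1 and at 180.1 and 73.4 RPM in litter 2 (difference 1.89, adjusted p 0.0337 by limma). Gap43, a protein of growing axons, was between 21.7 and 40.5 RPM in litter 1 and at 11.97 and 50.6 RPM in litter 2, and Snap25, Nefl and Elavl4 were at most 1.06 RPM in each library. Of the 11 enamel epithelium markers, Krt14, Krt5 and Cdh1 were also higher in both libraries of litter 2 than in any of litter 1, with log2 differences of 1.80, 1.79 and 1.90 (unadjusted p 0.0489, 0.0749 and 0.0319 by limma). The litters overlapped for the other 8, and the sum of all 11 was between 2339 and 49721 RPM in litter 1 and at 39321 and 20594 RPM in litter 2. Erythroid markers summed to between 130 and 340 RPM in litter 1 and to 1417 and 428 RPM in litter 2. The part of neuronal, epithelial and red cell RNA in the Eph receptor levels was not tested. Apart from Epha3, Ephb4 and Ephb6, each tested Eph receptor was lowest in control 2. In all, control 2 was the lowest library for 18 of 61 members (29.5%), against 14.4% of all genes, and control 3 was the highest for 15 members (24.6%), against 13.5%. Mutant 3 was the highest for 16 members (26.2%), against 23.8% of all genes.

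Control 2 was also the library with the lowest summed level of the enamel epithelium markers. Epha1 was at 14.9, 3.60 and 25.2 RPM in controls 1 to 3 and at 20.5, 11.2 and 27.4 RPM in mutants 1 to 3, lowest in control 2 and highest in mutant 3. Krt5, a basal epithelial keratin, was at 832, 95.4 and 1345 RPM in controls 1 to 3 and at 1267, 530 and 2076 RPM in mutants 1 to 3. Cdh1, the epithelial cadherin, was at 93.5, 15.5 and 218 RPM in controls 1 to 3 and at 124, 61.9 and 221 RPM in mutants 1 to 3. Epha1, Krt5 and Cdh1 had the same order in controls, and mutant 2 was the lowest mutant for each. Krt5 and Cdh1 were singled out after their values were seen, and the order was not that of every marker of the list. Epcam was at 32.2, 3.53 and 14.7 RPM in controls 1 to 3, and Amtn, Odam, Klk4 and Mmp20 were lowest among the controls in control 1. The sum of the 11 enamel epithelium markers, which is set mainly by enamel matrix genes, was 2339 RPM in control 2 and highest in mutant 1 at 49721 RPM. Exons of Epha1 overlap those of Zyx on the opposite strand by 236 bases, and no source used here states that counting used the strand, so its level is uncertain.

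**Figure D4:**
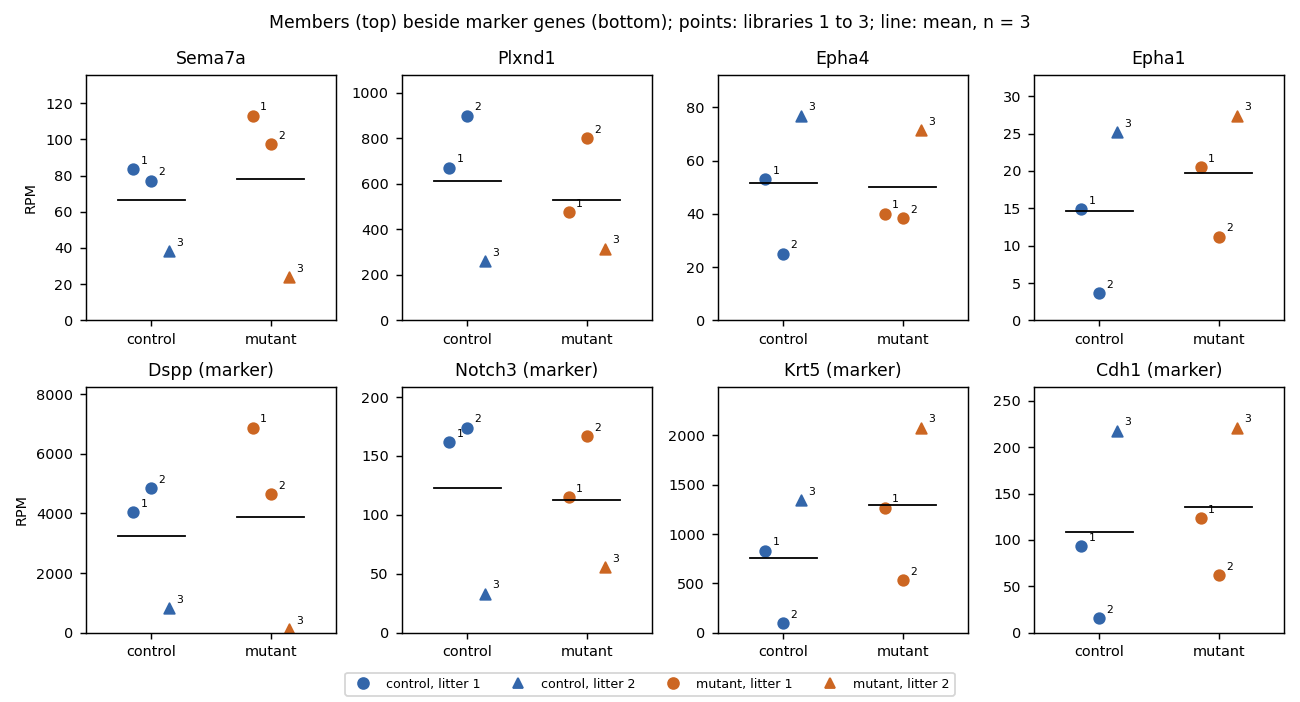
RPM of Sema7a, Plxnd1, Epha4 and Epha1 in each library, above the markers Dspp, Notch3, Krt5 and Cdh1; each point is 1 library with its number, circles are litter 1 and triangles litter 2, and lines are the means of the 3 libraries of a genotype. Sema7a, Plxnd1, Dspp and Notch3 are lower in both libraries of litter 2, and Epha4, Epha1, Krt5 and Cdh1 are higher in both.

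Of the 80 pathway genes, 3 had an adjusted litter p under 0.05 by limma, beside 0.872% of all genes, Gdnf and Gfra1 among them, each lower in litter 2. The count was 0 with no filter, median-of-ratios or quantile scaling, limma voom and the enamel covariate, and without mutant 2 or mutant 3, and it was 1 to 4 when any other library was left out. Gdnf, a growth factor of sensory and autonomic neurons made by the dental pulp, was at 16.7, 10.2, 11.9 and 21.4 RPM across litter 1 (controls 1 and 2, then mutants 1 and 2), and at 1.02 and 2.05 RPM in control 3 and mutant 3 (difference -2.64, SE 0.30, adjusted p 0.0337 by limma). Gfra1, which encodes the binding receptor of Gdnf, was between 10.05 and 14.2 RPM in litter 1 and at 4.03 and 1.51 RPM in litter 2 (difference -1.88, SE 0.22, adjusted p 0.0390 by limma). For both genes the litters did not overlap, while the unadjusted genotype p by limma was 0.709 for Gdnf and 0.494 for Gfra1. The unadjusted p was under 0.05 for 22 of the 80 pathway genes, beside 20.9% of all genes. Of these, 2 were higher in litter 2, beside 7.21% of all genes, and 20 lower, beside 13.7%. Without control 1 there were 10 higher and 16 lower, without control 3 there were 3 higher and 9 lower, and without control 2 there were 1 higher and 12 lower. Over all genes these fits gave 1244 higher and 1602 lower of 14409 without control 1, and 507 and 889 of 14450 without control 3. Without control 2 the numbers were 489 and 1253 of 14444.

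Whether the genotype change differed between litters was tested with an interaction term. No member and no gene had an adjusted p under 0.05 by limma; at an unadjusted p under 0.05 there were 8 of 61 members (13.1%) and 5.06% of all genes. Sema3g, a secreted semaphorin of endothelium, measured 22.5 and 21.1 RPM in controls 1 and 2 and at 9.81 and 13.5 RPM in mutants 1 and 2, but at 10.3 RPM in control 3 and 22.5 RPM in mutant 3. The direction of Sema3g was thus opposite in the 2 litters, with a change of -0.86 in litter 1 and 1.06 in litter 2 (interaction 1.92, SE 0.37, adjusted p 0.501 by limma). Unc5d, an Unc5 receptor that also binds Flrt2, measured 21.5 and 15.9 RPM in controls 1 and 2 and at 11.6 and 7.42 RPM in mutants 1 and 2, but at 9.18 RPM in control 3 and 28.5 RPM in mutant 3. The Unc5d changes were -0.92 in litter 1 and 1.53 in litter 2 (interaction 2.46, SE 0.47, adjusted p 0.501 by limma). The difference in litter 2 rests on a single library of each genotype.

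Several members lie close together in the genome. Efna1, Efna3 and Efna4 form a cluster on chromosome 3 with gaps of 32.8 and 10.4 kb, and Robo4 and Robo3 lie 0.554 kb apart on chromosome 9. Levels differed within both of these neighbourhoods: Robo4 was between 9.34 and 14.9 RPM while Robo3 was listed at 0 in every library but mutant 3. In the ephrin cluster, per length, Efna1 was at 36.1 RPM per kb, Efna4 at 16.7 and Efna3 at 5.23. The cluster's genotype changes were 0.02 (SE 0.16) for Efna1, -0.02 (SE 0.40) for Efna3 and 0.00 (SE 0.22) for Efna4. Of the other neighbours, Sema3b and Sema3f were close in level, at 11.5 and 9.88 RPM per kb. Sema3a and Sema3e were at 2.09 and 6.53 RPM per kb, and Ephb2 and Epha8 at 1.39 and 0.00125 RPM per kb. Exons of Efna3, Efna4, Ntn3, Ntn5, Plxna1, Plxnb1 and some others also overlap another annotated gene, by 519 bases for Ntn5, so that their reads may be shared.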

How the data were processed

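RNA of 6 libraries, 3 mutant and 3 control, was sequenced with an Illumina NextSeq instrument (per the labels' protocols); TopHat2 and mm10 are named in the submitters' processing notes. The counting tool, annotation and scaling are not given in the sources used here. The authors deposited 1 table that its title calls normalized RPKM, but it holds log2 values; back-transformed, 99.98% of them were multiples of a step shared by all genes of a column (tolerance 0.05 of a read), so lengths were not divided out. The values were therefore read as log2 of RPM, a denominator inferred from the step, and reads were recovered from it. The planned test assumed linear normalized values and was run on the back-transformed RPM.

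The 14444 genes that reached a mean of 1 RPM were tested on log2(RPM + 1), which understates changes of low genes, with limma 3.58.1 in R 4.3.3 (lmFit, eBayes with trend, two-sided, Benjamini-Hochberg over all), for genotype, for litter with genotype as a covariate, and for their interaction. The procedure was tested on simulated data. Members, pathway and marker lists were chosen with earlier results of these data known; 1 listed pathway gene is not reported here. Members named by rule were Sema3a, those with an unadjusted genotype p under 0.05, non-overlapping groups or an adjusted litter p under 0.05, the most abundant of each of 10 families, and the 5 most variable; others were chosen after their values were seen. Alternatives were a pseudocount of 0.1 or none, a mean of 5 RPM or no filter, median-of-ratios and quantile scaling, no trend, limma voom, litter, replicate or enamel marker terms, litter 1 alone, and leaving out each library; those of the interaction were chosen after seeing the data. Merged exon lengths came from GENCODE M21 and upstream sequences from RefSeq.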

Additional observations from a re-analysis of the deposited data

How the results depend on the processing

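Across the alternatives, no member had an adjusted genotype p under 0.05. Over all genes the count at an adjusted p under 0.05 was 0 in all except the fit without control 1, where it was 1 (0 to 1 when each library was left out). Members at an unadjusted genotype p under 0.05 numbered 2 in the reported fit, 1 with no filter, 1 with median-of-ratios scaling, 4 with a litter block, 5 in litter 1 alone, and 0 to 3 when each library was left out. Over all genes the same fits gave 152, 344 of 19290, 163, 292, 316 of 14431, and 68 to 319. Pathway genes numbered 0 in the reported fit, 1 with a litter block, 3 with the enamel covariate (353 of all 14444 genes), 1 in litter 1 alone, and 0 to 5 when each library was left out. Genes with an adjusted litter p under 0.05 numbered 126, but 2 with no filter, 0 with median-of-ratios scaling, 4 with quantile normalization, 0 with limma voom, 0 with the enamel covariate, and 0 to 371 when each library was left out. Among members that count was 1, but 0 with no filter, median-of-ratios scaling, quantile normalization, no trend, limma voom and the enamel covariate, and 0 to 2 when each library was left out. The interaction count of members was 0 in all 5 alternatives run. The causes were not tested. Of the 323 alternative genotype values of the 18 members named by rule, 271 kept both direction and side of the threshold, 31 reversed, 14 lost and 7 gained an unadjusted p under 0.05; of the 269 litter values, 251 kept both, 6 reversed, 1 gained and 11 lost an adjusted p under 0.05, all 11 of them of Sema7a.

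The labels do not pair same-numbered libraries within litter 1, so the replicate numbers were not taken as pairs. Only pair 3, the libraries of litter 2, follows from the labels. The deviations of pairs 1, 2 and 3 from their group means correlated across genes at -0.03, 0.75 and 0.50. With the replicate block, members at an unadjusted p under 0.05 numbered 8, pathway genes 6 and all 14444 genes 524, and the smallest adjusted p over all genes was 0.506.

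Genotype changes that reversed were as follows: with the enamel covariate Epha4 was at -0.19, Nrp2 at -0.050 and Plxnd1 at 0.23, and in litter 1 alone Ephb1 was at 0.47, Ephb4 at -0.13, Sema3d at 0.30 and Unc5b at 0.037. When each library was left out, genotype changes ranged from -0.13 to 0.095 for Efna1, -0.064 to 1.19 for Epha1, -0.41 to 0.38 for Epha4, -0.52 to 0.61 for Ephb1, -0.15 to 0.16 for Ephb4, -0.15 to 0.23 for Nrp2, -0.66 to 0.24 for Plxnd1, -0.16 to 0.071 for Robo1, -0.48 to 0.30 for Sema3d, -0.14 to 0.25 for Sema5a, -0.36 to 0.73 for Sema7a and -0.26 to 0.012 for Unc5b. Litter differences reversed only when a library was left out. Over those fits they ranged from -0.0013 to 0.52 for Efnb1, -0.31 to 1.28 for Ntn1, -0.31 to 0.0033 for Robo1, -1.46 to 0.47 for Slit1 and -0.52 to 0.074 for Unc5b. Slit1 has no value with a mean of at least 5. Depth limits the 8 members under 1 RPM, which were left out of the reported fit, and the low Slit1 libraries.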
